A study of Homo sapiens with 22 samples.

Results

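In HEK293 cells with VPR and p300 in one fusion, 7 genes had levels that the product of the folds measured with VPR and with p300 did not give. RASD1, PCDH8, NEFH and HYAL1 lay far above that product when VPR and p300 were joined in one fusion, and MYD88, EDA2R and ALDH1A1 lay far below it. These 7 were selected on those measured values, out of 48162 gene IDs in the count table and 16694 tested genes, for a strong positive or negative interaction. The interaction is the log2 change from adding VPR in the presence of p300 minus the log2 change from adding VPR in its absence. All 7 passed the count filter. Because measured values of WT, VPR, p300 and VPRP with the HBB guide chose the genes, these values are given as a description with no test.

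HEK293 is a line derived from human embryonic kidney. The series holds 12 RNA libraries, 2 in each of 6 groups, which it describes as biological replicates, and 10 H3K27ac ChIP-seq samples that were not analysed here. In 5 groups the cells carried a fusion to dCas9, a Cas9 that binds at the site of a guide RNA and does not cut. VPR sgHBB had dCas9-VPR, p300 sgHBB had dCas9-p300, p300 D1399Y sgHBB had dCas9-p300 (D1399Y), and VPRP sgHBB had dCas9-VPRP, each with a guide named for HBB, the beta-globin gene. VPRP non-target had dCas9-VPRP with a guide that has no target. The WT group, labelled as untreated, had a guide alone, and the labels do not say which. All cells received dox over 48 hours. Sorting took cells with both fluorescent markers, and for WT those with BFP; whether a line was 1 clone is not given in the sources used here, and neither is the amount of each fusion protein.

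VPR is a chain of activation domains from VP64, p65 and Rta, which recruit the transcription machinery. The acetyltransferase p300, encoded by EP300, adds acetyl groups to histones and other proteins at enhancers and promoters, and D1399Y is a substitution known to impair its catalysis. VPRP joins both. When 2 activators act on separate steps of transcription their folds are often expected to multiply, and when each fills a share of the same output their changes may add instead.

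The genes differ in their roles. RASD1 (ENSG00000108551) encodes a small GTPase of the RAS superfamily that is induced by glucocorticoids. PCDH8 (ENSG00000136099) encodes a protocadherin, a calcium-dependent adhesion protein best known from the nervous system, and NEFH (ENSG00000100285) encodes the heavy subunit of neurofilaments. HYAL1 (ENSG00000114378) encodes a lysosomal hyaluronidase. MYD88 (ENSG00000172936) encodes the adaptor of most Toll-like receptors and of the IL-1 receptor. EDA2R (ENSG00000131080) encodes a TNF receptor family member that binds ectodysplasin A2 and is a p53 target. ALDH1A1 (ENSG00000165092) encodes an aldehyde dehydrogenase that makes retinoic acid from retinal.

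The promoters are shown to let their sequence be compared, since RASD1 with PCDH8 and MYD88 with EDA2R had like levels across the groups while HYAL1 and ALDH1A1 departed from their sets. RefSeq promoter windows matched 6 of the 7 genes by symbol, and NEFH was not matched. The 250 bases before the start are given, read from GRCh38.p14; the counts were made on hg19, so these positions do not apply to that build. Capitals mark every match to 12 motifs that were searched on both strands, and EDA2R, which has 2 overlapping windows, is shown by 1 of them.
RASD1, chr17:17496396-17496645, minus strand: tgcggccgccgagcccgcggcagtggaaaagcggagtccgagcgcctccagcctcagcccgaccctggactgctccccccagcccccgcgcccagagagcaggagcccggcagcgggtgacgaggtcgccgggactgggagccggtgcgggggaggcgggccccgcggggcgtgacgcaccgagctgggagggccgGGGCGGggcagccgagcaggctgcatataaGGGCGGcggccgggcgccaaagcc
PCDH8, chr13:52848641-52848890, minus strand: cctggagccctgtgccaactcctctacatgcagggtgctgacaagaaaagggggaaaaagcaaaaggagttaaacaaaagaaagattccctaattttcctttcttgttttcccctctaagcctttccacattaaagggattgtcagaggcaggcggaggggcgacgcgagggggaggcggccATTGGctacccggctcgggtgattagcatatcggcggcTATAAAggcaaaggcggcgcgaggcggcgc
HYAL1, chr3:50303575-50303824, minus strand: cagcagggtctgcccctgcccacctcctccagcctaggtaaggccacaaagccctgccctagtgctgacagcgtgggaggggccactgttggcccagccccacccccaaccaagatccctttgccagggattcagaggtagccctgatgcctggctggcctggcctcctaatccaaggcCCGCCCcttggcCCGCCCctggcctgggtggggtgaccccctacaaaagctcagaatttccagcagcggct
MYD88, chr3:38138411-38138660, plus strand: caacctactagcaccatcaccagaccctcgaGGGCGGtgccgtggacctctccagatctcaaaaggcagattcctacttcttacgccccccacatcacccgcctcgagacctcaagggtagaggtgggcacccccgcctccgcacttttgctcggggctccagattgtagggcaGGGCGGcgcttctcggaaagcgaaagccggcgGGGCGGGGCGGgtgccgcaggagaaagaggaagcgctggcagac
EDA2R, chrX:66639079-66639328, minus strand: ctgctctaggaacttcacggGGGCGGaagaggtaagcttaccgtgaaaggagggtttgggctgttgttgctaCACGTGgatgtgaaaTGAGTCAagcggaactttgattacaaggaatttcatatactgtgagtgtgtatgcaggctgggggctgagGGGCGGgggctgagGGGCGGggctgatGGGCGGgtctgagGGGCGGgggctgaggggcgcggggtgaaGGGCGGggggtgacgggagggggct
ALDH1A1, chr9:72953054-72953303, minus strand: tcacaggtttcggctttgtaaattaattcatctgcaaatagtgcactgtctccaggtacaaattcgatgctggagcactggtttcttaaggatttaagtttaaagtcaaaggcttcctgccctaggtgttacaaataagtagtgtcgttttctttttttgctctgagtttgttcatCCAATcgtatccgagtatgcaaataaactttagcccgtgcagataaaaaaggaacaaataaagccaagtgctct

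No single searched motif was common to all the windows of either set. The GC box (GGGCGG) was found in RASD1, HYAL1, MYD88 and EDA2R and in 42.6% of 34788 promoter windows of the same length. PCDH8 held a TATA box (TATAAA), which 10.8% of windows held, 30 bases before its start. The CCAAT box (CCAAT) was found in PCDH8, ALDH1A1 and the EDA2R window not shown, and in 32.0% of all windows. EDA2R also held an AP-1 site (TGACTCA; 4.21% of windows) and an E-box (CACGTG; 6.31%). No window of the 6 genes held the CRE (TGACGTCA; 1.64% of all windows), the EGR site (GCGTGGGCG; 0.72%), the half-site for retinoic acid receptors (AGGTCA; 12.0%), the SRF CArG box (1.17%), the NF-kB site (5.21%), the p53 half-site (5.59%) or the glucocorticoid response element (0.15%). GC content ran from 38.4% in ALDH1A1 to 78.0% in RASD1, with a median of 58.0% over all windows. A match is a description of letters and not of binding.

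Levels are given in CPM (read counts scaled to library size with TMM factors), and the 2 values of a group are its 2 libraries in the order of their numbers. RASD1 was at 0.874 and 0.453 CPM in WT, 0.317 and 0.274 with VPR, and 1.35 and 1.88 with p300. It was at 0.405 and 0.484 CPM with p300 D1399Y. With VPRP it reached 16.6 and 14.9 CPM under the HBB guide and 28.2 and 28.1 CPM under the non-targeting guide. Both VPR libraries thus lay below both WT libraries, both p300 libraries above them, and all 4 VPRP libraries above every other library, while p300 D1399Y overlapped WT. On the log2 scale VPR against WT was -1.14 (SE 0.54), p300 against WT was 1.29 (SE 0.37) and VPRP sgHBB against WT was 4.56 (SE 0.25). The VPR value rests on 9 counts in 2 libraries and the WT value on 20. The interaction was 4.41 (SE 0.60).

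PCDH8 had nearly the same order. It was at 0.739 and 0.776 CPM in WT, 0.317 and 0.821 with VPR, 1.53 and 1.18 with p300 and 0.347 and 0.415 with p300 D1399Y. With VPRP it was at 9.33 and 10.9 CPM under the HBB guide and 22.5 and 21.3 CPM under the non-targeting guide. VPR overlapped WT, so these groups did not differ beyond their spread, p300 lay above both, and p300 D1399Y lay below WT and overlapped VPR. The log2 interaction of PCDH8 was 3.34 (SE 0.55), and it was 4.14 without VPR replicate 2, the library with 12 of the 17 VPR counts.

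NEFH was at 0.672 and 0.323 CPM in WT, 0.253 and 0.274 with VPR, and 0.405 and 0.415 with p300 D1399Y. It was at 2.14 and 2.24 CPM with p300. VPRP gave 9.26 and 8.18 CPM with the HBB guide and 9.84 and 9.64 CPM with the non-targeting guide. Of the 4 genes with a positive value NEFH had the largest log2 change with p300 alone, 2.13 (SE 0.39), and the D1399Y libraries lay within the range of WT. Its interaction was 2.88 (SE 0.66). HEK293 cells are known to express neurofilament genes, and NEFM, the medium subunit, was measured here at 48.2 to 127 CPM.

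HYAL1 differed from the other 3 in its response to the mutant. It was at 0.202 and 0.453 CPM in WT, 0.380 and 0.411 with VPR, 0.796 and 1.00 with p300 and 1.56 and 1.11 with p300 D1399Y. It was at 7.05 and 7.79 CPM with VPRP sgHBB and at 4.31 and 5.37 CPM with VPRP non-target. HYAL1 thus had higher levels in both D1399Y libraries than in both p300 libraries, where RASD1, PCDH8 and NEFH had lower ones, and it was the 1 gene of the 4 with lower values under the non-targeting guide than under the HBB guide. The log2 value of p300 against p300 D1399Y was -0.58 (SE 0.40) for HYAL1, 1.86 (SE 0.40) for RASD1, 1.82 (SE 0.44) for PCDH8 and 2.40 (SE 0.40) for NEFH. Its interaction, 2.78 (SE 0.77), rests on 10 counts in WT and 12 with VPR.

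MYD88 was nearly silent in WT, at 0.202 and 0.323 CPM from 3 and 5 counts, and had a higher level with every fusion. It was at 2.47 and 2.46 CPM with VPR, 6.85 and 6.54 with p300, and 9.07 and 9.48 with p300 D1399Y. VPRP sgHBB gave 8.28 and 7.68 CPM and VPRP non-target 2.67 and 2.71 CPM. The order from low to high was thus WT, VPR, VPRP non-target, p300, VPRP sgHBB and p300 D1399Y, with no overlap between neighbours. Adding VPR changed MYD88 by log2 3.19 (SE 0.42) without p300 and by 0.25 (SE 0.19) with it. The interaction was -2.94 (SE 0.47).

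EDA2R followed MYD88 closely. It was at 0.470 and 0.388 CPM in WT, 3.48 and 3.28 with VPR, 6.61 and 6.65 with p300 and 8.67 and 10.4 with p300 D1399Y. It was at 6.98 and 8.29 CPM with VPRP sgHBB and at 3.16 and 2.88 CPM with VPRP non-target. Here VPRP non-target lay just below VPR, while p300, VPRP sgHBB and p300 D1399Y came in the same order as for MYD88. The change from adding VPR was log2 2.96 (SE 0.36) without p300 and 0.21 (SE 0.19) with it, and the interaction was -2.75 (SE 0.42). As the p53 target among the 7, EDA2R was higher than in WT with each fusion, by log2 2.79 (SE 0.36) with VPRP non-target up to 4.44 (SE 0.31) with p300 D1399Y.

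ALDH1A1 was at 0.538 and 0.906 CPM in WT, 3.99 and 5.41 with VPR and 6.98 and 6.60 with p300. The mutant gave 2.60 and 3.32 CPM. VPRP gave 7.11 and 6.85 CPM with the HBB guide and 8.02 and 9.36 CPM with the non-targeting guide. Unlike MYD88 and EDA2R, ALDH1A1 had lower values with the mutant than with active p300 (log2 of p300 against p300 D1399Y 1.20, SE 0.23, against -0.47, SE 0.19, for MYD88 and -0.52, SE 0.19, for EDA2R), and its highest values were in VPRP non-target. The p300 and VPRP sgHBB libraries overlapped. Its interaction was -2.64 (SE 0.39), and -3.07 without WT replicate 2.

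**Figure D1:**
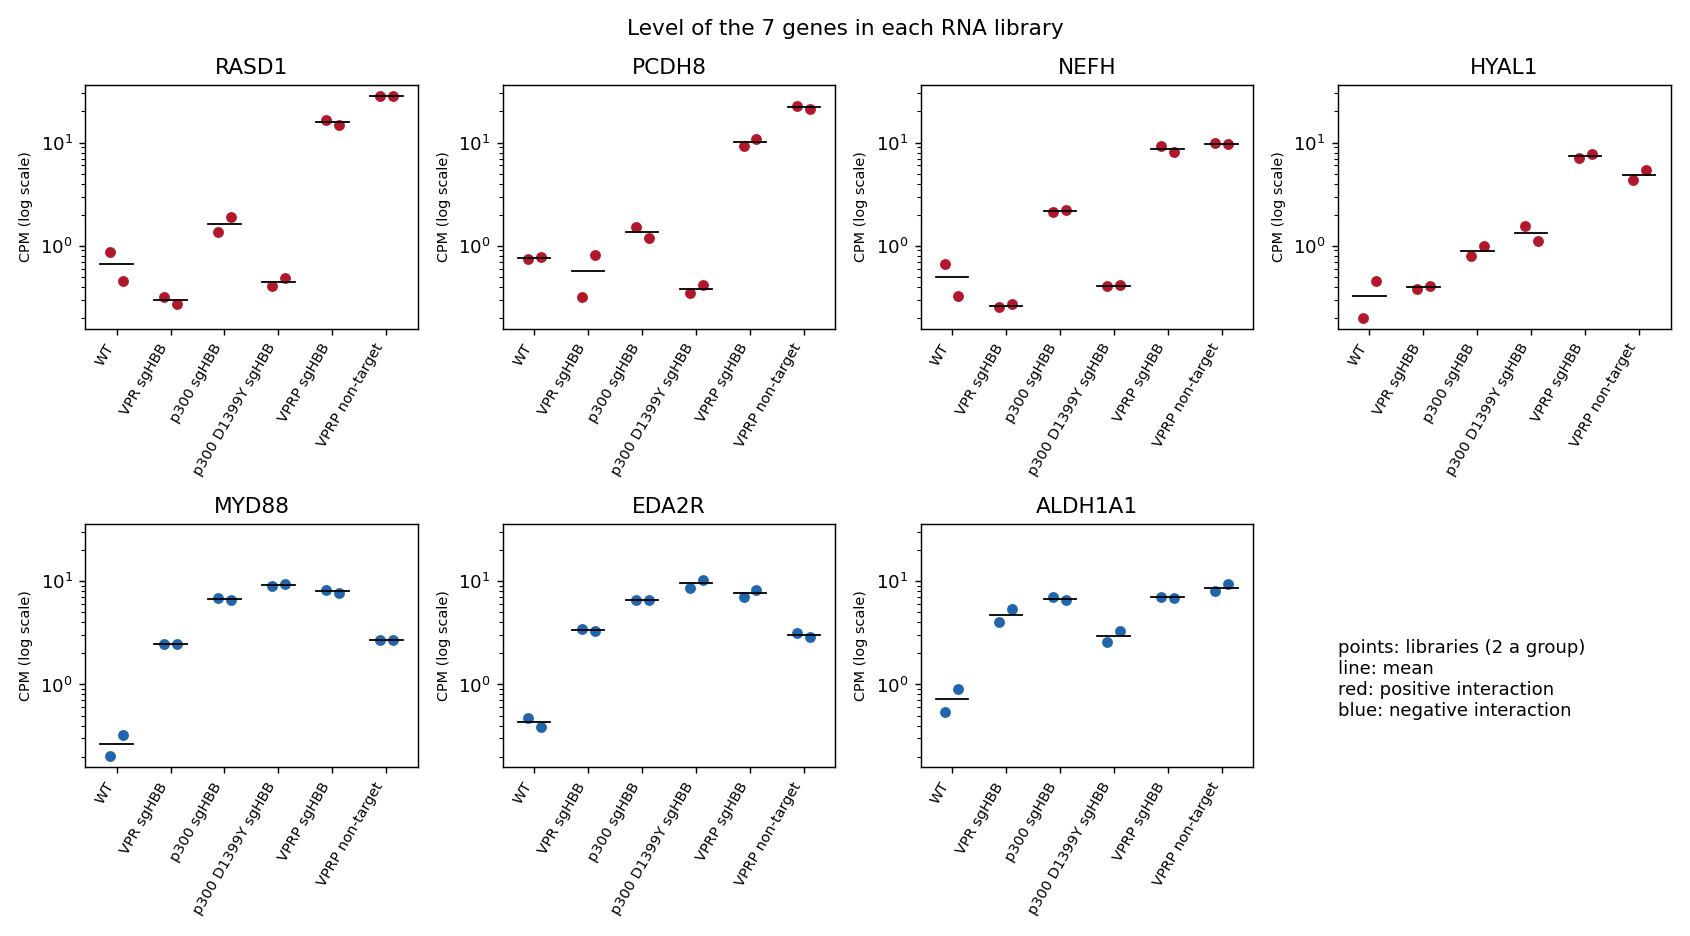
Level of each gene in CPM (log scale) in the 12 RNA libraries, by group; points are libraries, lines are group means, red marks genes with a positive and blue genes with a negative interaction. RASD1, PCDH8, NEFH and HYAL1 stand out in the 4 VPRP libraries, from 4.31 CPM for HYAL1 up to 28.2 CPM for RASD1, while MYD88, EDA2R and ALDH1A1 are low in WT alone.

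None of the 7 had the most extreme interaction. Ranked by size within their direction among the 16694 tested genes, RASD1 came at place 44, PCDH8 at 103, NEFH at 146 and HYAL1 at 166 of the positive values. MYD88 came at place 85, EDA2R at 102 and ALDH1A1 at 109 of the negative ones. The median over all tested genes was -0.03, with the 5th and 95th percentiles at -1.03 and 1.17. In the plot of the VPR effect without and with p300, the 4 positive genes sit where VPR alone gave a small or negative value, and the 3 negative genes where adding VPR to p300 gave a value near 0.

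**Figure D2:**
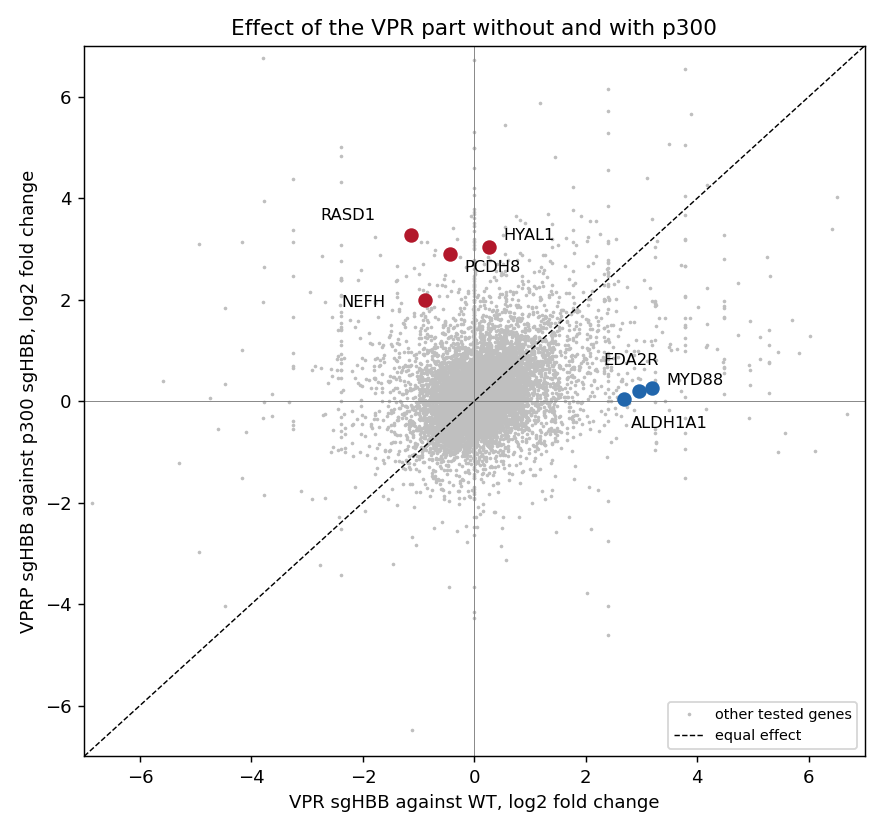
Log2 change from adding the VPR part, without p300 (x axis, VPR sgHBB against WT) and with p300 (y axis, VPRP sgHBB against p300 sgHBB); grey points are tested genes, 8 of which lie outside the axes, and the dashed line marks equal effects. RASD1 lies at -1.14 and 3.28, MYD88 at 3.19 and 0.25.

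Setting VPRP sgHBB against both the sum and the product of its parts separated the sets further. The sum was taken as VPR plus p300 minus WT, and the product as VPR times p300 over WT, from mean CPM. For RASD1 the sum gave 1.25 CPM and the product 0.719 CPM, against a measured 15.8 ± 1.22 CPM (SD, n = 2). VPRP was therefore 12.6 times the sum for RASD1. It was 8.70 times the sum for PCDH8, 4.46 times for NEFH and 7.68 times for HYAL1. Over single libraries, the ratio to the sum ran from 8.53 to 22.3 for RASD1, 5.79 to 15.2 for PCDH8, 3.74 to 5.38 for NEFH and 5.82 to 10.8 for HYAL1. Since these 4 groups chose the genes, the ratios describe the spread and support nothing.

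For the other 3 the product was well above the measured level, and the sum was nearer to it, most of all for MYD88. The product was 62.9 CPM for MYD88, 52.3 for EDA2R and 44.2 for ALDH1A1, which is 7.88, 6.85 and 6.33 times the measured VPRP level. The sum was 8.90 CPM for MYD88, against a measured 7.98 ± 0.428 CPM, a ratio of 0.897. It was 9.59 CPM for EDA2R against 7.63 ± 0.924 CPM (ratio 0.796), and 10.8 CPM for ALDH1A1 against 6.98 ± 0.184 CPM (ratio 0.649). The VPRP sgHBB means of MYD88, EDA2R and ALDH1A1 therefore lay below the sum, by a much smaller margin than from the product. No error was put on the sum, so whether MYD88, the nearest to it, lay below it was not tested. With the extreme libraries the ratio to the sum ran from 0.842 to 0.955 for MYD88, 0.716 to 0.879 for EDA2R and 0.578 to 0.735 for ALDH1A1.

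**Figure D3:**
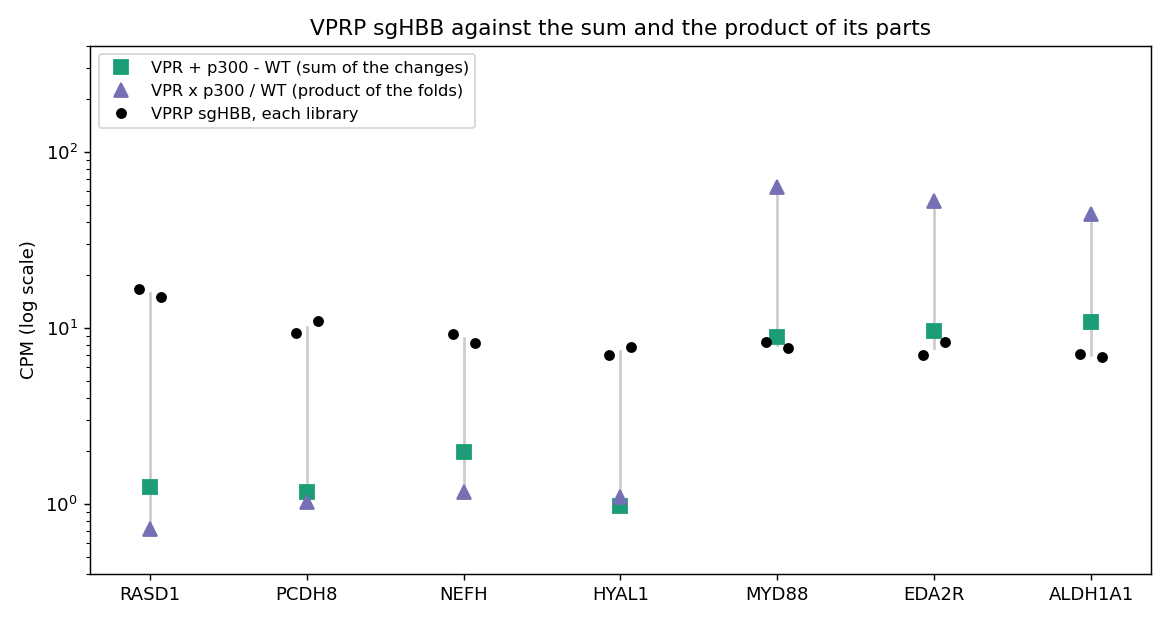
VPRP sgHBB in CPM (log scale; black points, each library) with the sum of the changes of VPR and p300 (green squares) and the product of their folds (purple triangles), from group means. The measured points lie above both marks for RASD1, PCDH8, NEFH and HYAL1 and below the sum for MYD88, EDA2R and ALDH1A1, at ratios of 0.897, 0.796 and 0.649.

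The product divides by WT, where counts were few. MYD88 had 8 WT counts in all, and the exact 95% Poisson interval of that number, which covers counting error only, gives a product of 31.8 to 145 CPM. The interval was 30.6 to 98.4 CPM for EDA2R (13 counts) and 29.0 to 70.1 CPM for ALDH1A1 (22 counts). For the positive genes it reached at most 1.18 CPM for RASD1, 1.60 for PCDH8, 2.09 for NEFH and 2.25 for HYAL1. These ranges vary WT alone, on values that chose the genes, and are no test. The sum, which subtracts WT, hardly depends on it for MYD88, EDA2R and ALDH1A1.

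The same sums were formed with groups that the choice did not use, VPRP non-target in place of VPRP sgHBB or p300 D1399Y in place of p300; these share the other groups with the choice and are descriptions. With VPRP non-target the log2 interaction was 5.25 for RASD1, 4.44 for PCDH8, 3.04 for NEFH and 2.17 for HYAL1. It was -4.50 for MYD88, -4.09 for EDA2R and -2.32 for ALDH1A1. All 7 values thus had the sign of the original. MYD88 and EDA2R then lay well below the sum too, at 0.303 and 0.315 of it, whereas ALDH1A1 was at 0.808. With the mutant in place of p300 the same log2 formula gave 6.27 for RASD1, 5.15 for PCDH8, 5.28 for NEFH and 2.20 for HYAL1. VPRP carries active p300, so these values also hold the difference between p300 and p300 D1399Y. They are not interactions of VPR with the mutant. In the negative set the formula gave -3.41 for MYD88, -3.27 for EDA2R and -1.43 (SE 0.41) for ALDH1A1. For ALDH1A1 this was nearer to 0 than with active p300, and the VPRP level equalled the sum (ratio 1.01).

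VPRP non-target against p300 D1399Y was a comparison in which none of the 4 libraries had chosen the genes. It is not fully independent of the choice. VPRP non-target carries the same fusion as VPRP sgHBB, which took part in the choice, and all 12 libraries shared 1 fit. All 7 genes passed an adjusted p of 0.05 (edgeR's quasi-likelihood test, Benjamini-Hochberg adjustment over 16694 genes), with 58.1% of all tested genes called, 29.4% higher and 28.7% lower. Since most tested genes were called, the count of 7 is read against that share; over all genes the median was 0.00 and the 5th and 95th percentiles were -1.12 and 2.67. RASD1 rose by log2 5.97 (SE 0.25, adjusted p = 3.73e-20), PCDH8 by 5.83 (SE 0.29, adjusted p = 2.2e-18) and NEFH by 4.55 (SE 0.33, adjusted p = 7.29e-14). HYAL1 rose less, by 1.84 (SE 0.31, adjusted p = 5.55e-06). In the negative set MYD88 was lower by log2 -1.78 (SE 0.21, adjusted p = 8.4e-09) and EDA2R by -1.65 (SE 0.21, adjusted p = 3.19e-08), but ALDH1A1 was higher by 1.56 (SE 0.22, adjusted p = 2.87e-07). No 2 libraries from opposite groups overlapped for any of the 7.

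**Figure D4:**
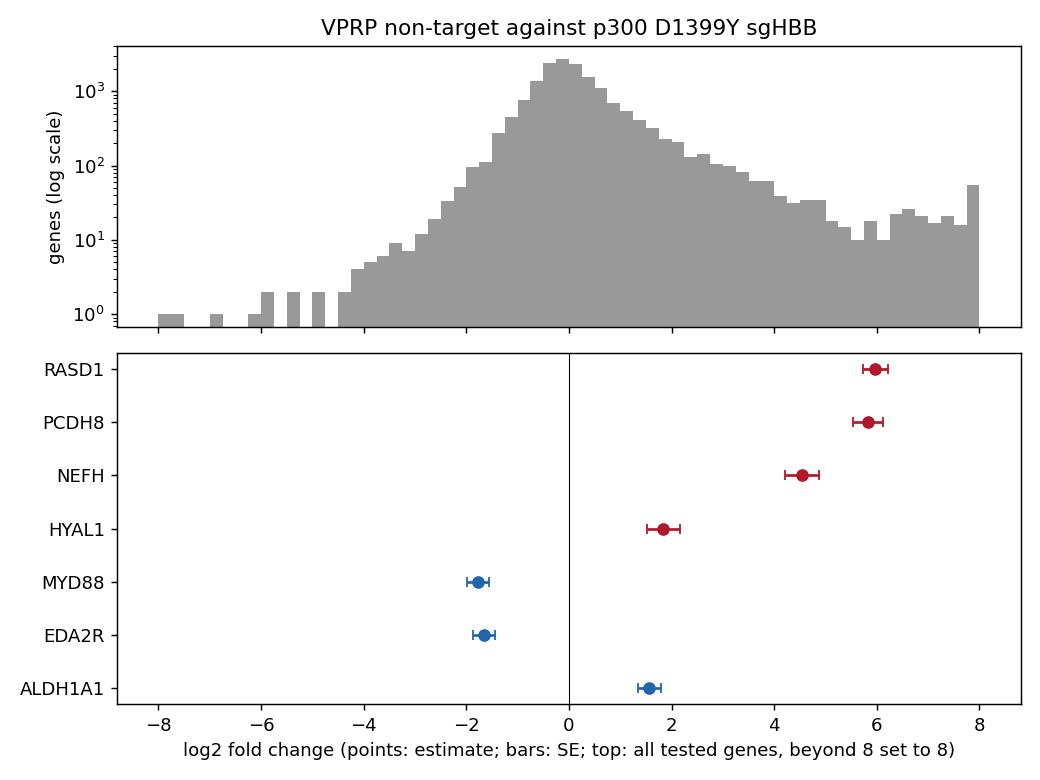
VPRP non-target against p300 D1399Y sgHBB on the log2 scale, for all tested genes (top, log count axis) and for the 7 genes (bottom; points are estimates and bars SE). RASD1, PCDH8 and NEFH lie at 4.55 or above, MYD88 and EDA2R below 0 and ALDH1A1 above it.

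This comparison changes the guide, the VPR part and p300 catalysis together, and 2 further measures moved with it. EP300 reads, from the cells' gene and the construct together, were at 1172 ± 9.92 CPM in VPRP non-target and 195 ± 1.19 CPM in p300 D1399Y (SD, n = 2). MAGEA10, a cancer-testis antigen gene, was at 32.0 ± 0.0315 and 0.0692 ± 0.0978 CPM. These cannot be told apart from the parts of the fusion. In the groups that chose the genes EP300 was at 107 ± 5.4 CPM in WT, 98.7 ± 17.6 with VPR, 1124 ± 11.2 with p300 and 375 ± 33.3 with VPRP sgHBB, so the p300 part went with unequal EP300 reads. For MAGEA10 the level was 9.46 ± 0.163 CPM in WT, 25.9 ± 1.47 CPM with VPR, 0 counts with p300 and 0.213 ± 0.0673 CPM with VPRP sgHBB. Mean MAGEA10 was at most 0.213 CPM with p300, p300 D1399Y and VPRP sgHBB, and these groups also had the highest MYD88 and EDA2R means. MYD88 was at 6.70, 9.27 and 7.98 CPM there, and EDA2R at 6.63, 9.52 and 7.63 CPM. Both were lower in WT, VPR and VPRP non-target, where mean MAGEA10 was 9.46 CPM or more. ALDH1A1 did not follow this split, at 2.96 CPM with p300 D1399Y and 8.69 CPM with VPRP non-target. The part of EP300 and MAGEA10 in the interaction values was not tested.

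The genes most like each of the 7 over the 12 libraries, by Pearson r of log2 CPM, were found among 12655 candidates. EDA2R and MYD88 were each other's nearest gene of all (r = 0.991), and VGLL4, a transcriptional cofactor, came next for both (r = 0.972 with MYD88 and 0.974 with EDA2R), before RASSF2 for MYD88 (r = 0.967) and TIGAR, a p53-inducible gene of sugar metabolism, for EDA2R (r = 0.961). RASD1 was nearest to KIDINS220 (r = 0.994), NPTX2 (0.989) and INPP5F (0.989). PCDH8 was nearest to FAM220A (0.992), SCPEP1 (0.986) and SIGIRR (0.983), and NEFH to SLC8B1 (0.994), GFPT2 (0.992) and ELL2 (0.989). For HYAL1 the genes were MAST3 (0.987), CCHCR1 (0.982) and SNN (0.974). ALDH1A1 had CHAC2 (0.984), OPTN (0.963) and B2M (0.962). High r did not mean equal size: KIDINS220 ran only from 71.5 ± 1.9 CPM with VPR to 127 ± 7.03 CPM with VPRP non-target. Among the 7, RASD1, PCDH8 and NEFH had r of 0.949 to 0.980 with one another and HYAL1 0.843 to 0.880 with these, while ALDH1A1 had 0.735 with MYD88 and 0.720 with EDA2R. The points are 6 groups of 2 libraries, so these are descriptions.

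Relatives and partners of the 7 genes were then counted in lists, with the 7 left out. In the interaction, 6.68% of tested genes were called higher and 8.53% lower at an adjusted p of 0.05. Higher and lower here give the sign of the interaction, not a level above or below WT. Of 7 other delta-protocadherins tested, 3 were higher and 0 lower (edgeR; 1 lower at an unadjusted p under 0.05 and 0 with DESeq2), with a list median of -0.15 beside -0.03 for all genes. PCDH17 had a log2 interaction of 1.37 (SE 0.22, adjusted p = 5.65e-05), PCDH19 of 1.25 (SE 0.24, adjusted p = 0.00034) and PCDH9 of 0.92 (SE 0.14, adjusted p = 2.41e-05), all by edgeR's quasi-likelihood test. PCDH17 was at 12.5 ± 0.22 CPM in WT, 12.9 ± 3.39 with VPR, 10.1 ± 1.33 with p300 and 26.9 ± 2.09 with VPRP sgHBB. Like PCDH8, PCDH17 had its highest means in the VPRP groups. In VPRP non-target against p300 D1399Y, 4 of the 7 were higher and 1 lower, in a comparison that called 29.4% of all tested genes higher and 28.7% lower.

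The list for NEFH held intermediate filament genes, neuronal or not, and other neuronal cytoskeleton genes. It had 4 of 13 higher and 0 lower (edgeR, with 1 lower at an unadjusted p under 0.05 and 0 with DESeq2). Its median was 0.16, and of all tested genes 6.68% were called higher and 8.53% lower. SYNM, an intermediate filament protein, had an interaction of 1.19 (SE 0.29, adjusted p = 0.00382), NES, the progenitor filament nestin, of 0.91 (SE 0.26, adjusted p = 0.014) and NEFM of 0.42 (SE 0.11, adjusted p = 0.0114; edgeR's quasi-likelihood test for all 3). VIM, vimentin, was the fourth (0.32, SE 0.11), named after its value was seen. NEFM was the only neurofilament gene among the 4. Also named after their values were seen, INA, PRPH, MAPT, MAP1B, MAP2, STMN2, GAP43 and TUBB3 were not called. Unlike NEFH, NEFM was lower with p300 than in WT, at 49.4 ± 1.71 against 124 ± 4.39 CPM, and was at 57.8 ± 3.29 CPM with VPRP sgHBB. NEFM no longer passed when any of 4 libraries was left out: VPR replicate 2 (adjusted p of 0.0525), VPRP sgHBB replicate 2 (0.0541), WT replicate 2 (0.0665) or p300 replicate 1 (0.0702). NES no longer passed when VPR replicate 2 (0.114) or WT replicate 2 (0.191) was.

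In the interaction, small GTPases related to RASD1 had 3 of 12 higher and 0 lower (edgeR, with 0 lower at an unadjusted p under 0.05 and 0 with DESeq2). Their median was 0.26, and of all tested genes 6.68% were called higher and 8.53% lower. RASD2, its closest relative, had an interaction of 0.94 (SE 0.26, adjusted p = 0.0128), RASL11B of 1.27 (SE 0.24, adjusted p = 0.000295) and DIRAS1 of 0.49 (SE 0.12, adjusted p = 0.0034), by edgeR's quasi-likelihood test. The DIRAS1 mean was below WT (75.6 ± 1.92 CPM) with VPR (57.9 ± 5.86), p300 (63.6 ± 3.79) and VPRP sgHBB (68.7 ± 1.08). RASD2 was at 3.79 ± 0.0372 CPM in WT and 16.1 ± 0.656 CPM with VPRP sgHBB. With VPR replicate 2 left out its adjusted p was 0.0987, and with WT replicate 2 left out 0.0507. Genes that, like RASD1, are induced by glucocorticoids were mixed, with 3 higher and 2 lower of 14 (3 and 1 with DESeq2) and a median of -0.15. SGK1, a kinase, had 1.83 (SE 0.28, adjusted p = 2.41e-05) and ERRFI1, an inhibitor of EGFR signalling, 0.87 (SE 0.12, adjusted p = 7.45e-06), while DUSP1, a MAPK phosphatase, had -0.80 (SE 0.15, adjusted p = 0.00022). PER1, a clock gene (0.56, SE 0.14), and NR3C1, the glucocorticoid receptor (-0.50, SE 0.15), were the other called genes, named after their values were seen. SGK1 was at 2.46 ± 0.539 CPM in WT, 2.44 ± 0.133 with VPR, 11.5 ± 1.33 with p300 and 40.3 ± 2.94 with VPRP sgHBB.

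In the hyaluronan list 1 of 12 genes was higher and 1 lower, with a median of -0.02, beside 6.68% and 8.53% of all tested genes. CEMIP2, a cell-surface protein of hyaluronan breakdown, had an interaction of 0.58 (SE 0.14, adjusted p = 0.00382), and HMMR, a hyaluronan-binding protein of the mitotic spindle, had -1.44 (SE 0.14, adjusted p = 3.58e-09; edgeR's quasi-likelihood test). HMMR was at 41.9 ± 0.963 CPM in WT, 79.4 ± 12.2 with VPR, 55 ± 4.38 with p300 and 38.3 ± 2.95 with VPRP sgHBB. The neighbouring hyaluronidase genes HYAL2 (0.17, SE 0.15, adjusted p = 0.502) and HYAL3 (0.52, SE 0.23, adjusted p = 0.133) had no call.

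Partners of MYD88 and EDA2R were counted beside the 6.68% of all tested genes called higher and the 8.53% called lower in the interaction. In Toll-like and IL-1 receptor signalling, 2 of 18 tested genes were higher and 1 lower, with a median of 0.09. TLR5, the flagellin receptor, went the other way from MYD88, with an interaction of 1.61 (SE 0.36, adjusted p = 0.0019), from 1.95 ± 0.286 CPM in WT to 14 ± 0.716 CPM with VPRP sgHBB; TAB2, a partner of the kinase TAK1, had -0.37 (SE 0.11, adjusted p = 0.0191). TAB2 no longer passed when VPRP sgHBB replicate 1 (adjusted p of 0.0648), WT replicate 2 (0.0876) or p300 replicate 1 (0.123) was left out. TAB1, the other called gene (0.32, SE 0.11), was not called in 11 of 19 alternatives. It was at 108 ± 6.39 CPM in WT and 81.4 ± 1.04 CPM with VPRP sgHBB. In the EDA and TNF receptor list 1 of 21 was higher, TNFRSF11A, the RANK receptor (0.70, SE 0.18, adjusted p = 0.00867), and 0 lower (edgeR; 2 lower at an unadjusted p under 0.05 and 0 with DESeq2), with a median of 0.04. TNFRSF11A was at 20.5 ± 0.937 CPM in WT and 17.7 ± 0.373 CPM with VPRP sgHBB, and had an adjusted p of 0.0838 when p300 replicate 2 was left out. All of these p-values are from edgeR's quasi-likelihood test.

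Among other p53 targets more genes were lower than higher, the direction of EDA2R. Of 23 tested, 6 were lower (2 with DESeq2) and 1 higher in the interaction, with a median of -0.21. There 8.53% of all tested genes were called lower and 6.68% higher. In VPRP non-target against p300 D1399Y 16 were lower and 4 higher, with a median of -0.56. That comparison called 28.7% of all tested genes lower and 29.4% higher. MDM2, the ubiquitin ligase of p53, had an interaction of -0.64 (SE 0.11, adjusted p = 0.000123 by edgeR's quasi-likelihood test). It was at 101 ± 3.67 CPM in WT, 131 ± 6.85 with VPR, 139 ± 3.45 with p300, 185 ± 9.54 with p300 D1399Y, 116 ± 15 with VPRP sgHBB and 67.2 ± 0.591 with VPRP non-target. MDM2 and EDA2R thus had their highest mean in the same group, but EDA2R stayed above WT with VPRP non-target and MDM2 did not. GDF15, a secreted stress factor (-1.18, SE 0.40, adjusted p = 0.0426), and SPATA18, a mitochondrial quality-control gene (-0.57, SE 0.19, adjusted p = 0.0401), were called too, but GDF15 lost its call in 13 and SPATA18 in 12 of 19 alternatives, DESeq2 among them for both. Named after their values were seen, CDKN1A (-0.40, SE 0.11), DDB2 (-0.40, SE 0.13) and PHLDA3 (-0.33, SE 0.12) were the other lower genes and FDXR (0.46, SE 0.12) the higher one.

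Around ALDH1A1, 4 of 21 retinoid genes were lower and 1 higher in the interaction, with a median of -0.05. Of all tested genes 8.53% were called lower and 6.68% higher. The higher retinoid gene, named after its value was seen, was the receptor gene RARG (0.55, SE 0.19). CRABP2, a carrier of retinoic acid, had an interaction of -1.13 (SE 0.13, adjusted p = 1.93e-07), RXRG, a retinoid receptor, of -1.12 (SE 0.25, adjusted p = 0.00221) and DHRS3, a retinal reductase, of -0.98 (SE 0.24, adjusted p = 0.00424), by edgeR's quasi-likelihood test. The patterns behind these values differed. CRABP2 was highest with VPR, at 121 ± 0.879 CPM against 37.6 ± 4.44 CPM in WT, and was at 62.8 ± 7.92 with VPRP sgHBB, while DHRS3 was at 11.0 CPM in both WT and VPR and at 7.62 ± 2.42 with VPRP sgHBB. DHRS3 had an adjusted p of 0.0778 when VPRP sgHBB replicate 2 was left out. ALDH1A2, which also makes retinoic acid, had -0.85 (SE 0.12, adjusted p = 5.03e-06) from near-equal levels in WT, VPR and p300 (80.8 ± 3.17, 75.6 ± 2.6 and 77.4 ± 2.44 CPM) and a lower one with VPRP sgHBB (40.3 ± 4.04 CPM). The aldehyde dehydrogenase list as a whole had 3 higher and 2 lower of 17 (3 and 1 with DESeq2), with a median of 0.12. In VPRP non-target against p300 D1399Y, where ALDH1A1 was higher, 5 retinoid genes were higher and 11 lower, and 3 and 8 aldehyde dehydrogenases. Small GTPases had 5 higher and 1 lower there, glucocorticoid-induced genes 5 and 5, and the filament list of NEFH 6 and 4. The hyaluronan list had 6 and 3, the Toll-like and IL-1 receptor list 8 and 5, and the EDA and TNF receptor list 8 and 6. Over all tested genes 29.4% were higher and 28.7% lower.

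**Figure D5:**
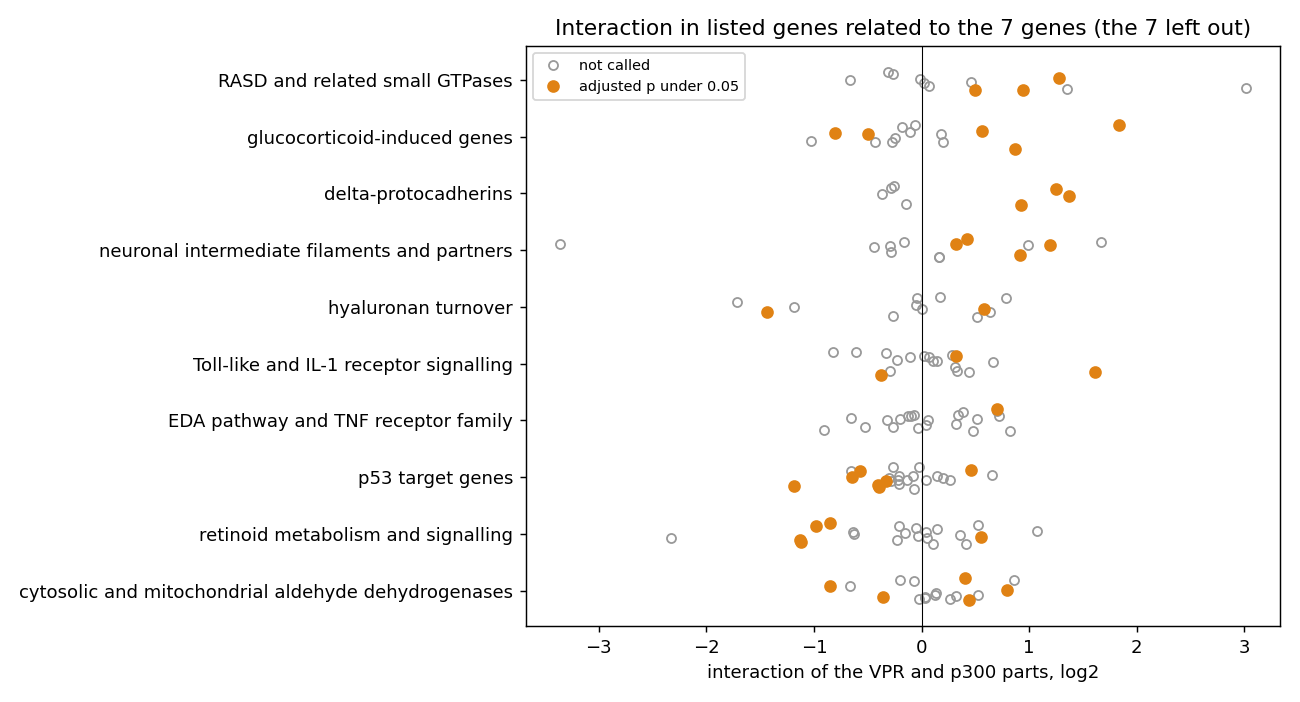
Log2 interaction of the listed relatives and partners (x axis), 1 row a list, with the 7 genes left out; filled points passed an adjusted p of 0.05. The called delta-protocadherins lie between 0.92 and 1.37 and the lowest called retinoid gene at -1.13.

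Position in the genome was looked at after the values had been seen, using the gene order of GRCh38.p14. No other gene of that table overlapped any of the 7. The 28 nearest tested genes, 2 on each side of each gene, were taken by order with no limit on distance. Of these 1 was called higher in the interaction, PCDH17, which had RPL13AP25 between it and PCDH8. TUSC2, with HYAL2 between it and HYAL1, was called lower (-0.39, SE 0.13, adjusted p = 0.033 by edgeR's quasi-likelihood test). MED9 and PEMT beside RASD1 had 0.23 (SE 0.13) and 0.01 (SE 0.14), AP1B1 beside NEFH -0.03 (SE 0.10) and OXSR1 beside MYD88 -0.09 (SE 0.11), none of them called. The 2 calls among 28 neighbours compare with 15.2% of all tested genes called and say nothing particular about neighbours. In VPRP non-target against p300 D1399Y, 7 of the 28 were called higher and 9 lower, beside 29.4% and 28.7% of all tested genes.

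Total counts ran from 14894558 to 17479523 a library. Within a group, libraries differed by more than counting noise, and the ratio of their variance to that of Poisson counting was lowest in VPRP non-target (2.86) and highest in VPR (13.6). Of 8 genes listed as markers of HEK293 cells 6 were matched and 5 were present in every library, from PAX2 at 4.04 to 10.3 CPM to VIM at 58.5 to 176 CPM; SOX11 had at most 3 counts. The summed level of these 6 was 517 to 522 CPM in WT and 231 to 243 CPM with VPRP sgHBB. The defining leukocyte markers PTPRC and CD3E were near 0, with at most 5 and 2 counts in any library. The fibroblast list summed to 17.1 to 19.2 CPM in WT and 63.2 to 66.4 CPM with VPRP sgHBB, mainly COL1A1, while DCN had at most 8 counts; its part in the results was not tested. In bulk samples a change in the share of expressing cells and a change in RNA per cell cannot be told apart.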

How the data were processed

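The authors deposited 1 table of whole-number read counts per gene ID, not normalized, for 12 RNA libraries. STAR 2.5, HTSeq 0.6.1, DESeq2 1.24.0 and hg19 are listed per the submitters' processing notes; the sources used here give neither annotation release nor strand setting. Per the labels' protocols, polyadenylated RNA was selected. Symbols matched 33626 of 48162 IDs.

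Counts were filtered with filterByExpr (minimum count 10, minimum total 15) and TMM factors were computed. All 12 libraries entered 1 fit with 6 group means in edgeR 4.0.16 (limma 3.58.1, R 4.3.3) by quasi-likelihood, and p-values were adjusted by Benjamini-Hochberg over 16694 genes. Each SE was obtained by dividing the absolute log2 value by the root of its F. The 7 genes, the lists and the tests were chosen with earlier results of these data known. Of 213 listed genes 210 were matched. The text names the 7 genes, up to 3 called genes per list with the largest interaction and a mean log2 CPM of at least 1, the 3 genes most like each of the 7 (prior count 2), EP300 and MAGEA10; neighbours, HYAL2, HYAL3, markers and the genes so marked in the text were added after values had been seen. The steps were tested on simulated data. Also tried were a stricter filter (1 CPM) or none, RLE or upper-quartile scaling, DESeq2 1.42.0, the replicate number as a block, models of just the groups in a contrast, and leaving out each library. Intervals cover counting error only, and the labels describe no molecular identifiers. Figures were drawn with matplotlib 3.10.9.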

Additional observations from a re-analysis of the deposited data

Results flagged for a closer look

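The VPR effect pointed in opposite directions without and with p300 for 2 of the 7 genes, every VPR library lying below both WT libraries and every VPRP sgHBB library above both p300 libraries: RASD1 (interaction log2 4.41) and NEFH (2.88). The difference was not tested for them, since it chose them. The direction without p300 rests on few counts. VPR against WT was log2 -0.89 (SE 0.61) for NEFH, from 8 counts with VPR and 15 in WT. For RASD1 it was -1.14 (SE 0.54), from 9 and 20 counts.

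Of the listed relatives and partners, 22 had a higher and 15 a lower value by the test of the difference itself (edgeR's quasi-likelihood test, adjusted p under 0.05); the 27 given here are those named by the rule of at most 3 a list. Positive log2 interactions were measured for SGK1 (1.83), TLR5 (1.61), PCDH17 (1.37), RASL11B (1.27), PCDH19 (1.25), SYNM (1.19), RASD2 (0.94), PCDH9 (0.92), NES (0.91), ERRFI1 (0.87), ALDH4A1 (0.79), TNFRSF11A (0.70), CEMIP2 (0.58), DIRAS1 (0.49), ALDH6A1 (0.44), NEFM (0.42) and TAB1 (0.32). Negative ones were measured for HMMR (-1.44), GDF15 (-1.18), CRABP2 (-1.13), RXRG (-1.12), DHRS3 (-0.98), ALDH1A2 (-0.85), DUSP1 (-0.80), MDM2 (-0.64), SPATA18 (-0.57) and TAB2 (-0.37). The TAB1 call was lost in 11 of 19 alternatives and the ALDH6A1 call without p300 replicate 1 or WT replicate 1. A positive value was not always a level above WT. Mean VPRP sgHBB levels were below WT for DIRAS1 (68.7 against 75.6 CPM), TNFRSF11A (17.7 against 20.5) and ALDH6A1 (62.9 against 70.7). The same was true of NEFM (57.8 against 124) and TAB1 (81.4 against 108).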

How the results depend on the processing

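The 7 genes kept the sign of their interaction under all 19 alternatives, from 3.87 to 4.81 for RASD1, 2.79 to 4.14 for PCDH8, 2.27 to 3.31 for NEFH, 2.09 to 3.23 for HYAL1, -3.31 to -2.65 for MYD88, -2.90 to -2.62 for EDA2R and -3.07 to -2.32 for ALDH1A1; as the choice fixed these signs, that is no sign of stability. All 7 stayed called in VPRP non-target against p300 D1399Y in each of the 19. Calls over all genes in the interaction were 1115 higher and 1424 lower; leaving out 1 library gave 612 to 1426 and 815 to 1852, with fewest calls without p300 replicate 1 (612 and 815), followed by WT replicate 2 (725 and 894), and 828 lower without VPRP sgHBB replicate 2. DESeq2 gave 923 lower, and RLE factors turned the split to 1280 higher and 1141 lower. Of the listed genes 22 were called higher and 15 lower, 14 to 25 and 8 to 19 with 1 library left out, and 9 lower with DESeq2 (14 higher without VPR replicate 2, 9 lower without p300 replicate 2, 8 lower without WT replicate 2); the cause was not tested. With a replicate block the interaction had 1023 higher and 1263 lower genes and 21 and 13 listed genes, VPRP non-target against p300 D1399Y had 4835 and 4717, and of the 27 listed genes named by rule only TAB1 lost its call (adjusted p = 0.0556). Same-numbered libraries did not deviate together (r from -0.041 to 0.066 over 15 pairs of groups), so the numbers were not taken to pair them. Few counts in WT limit the precision for all 7, and few with VPR that for the 4 positive genes.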
